A study of Mus musculus with 6 samples.

Results

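Histone lysine methylation and acetylation enzymes were followed in metaphase II (MII) oocytes that had matured in vitro (IVM) or in vivo (IVO). The members are the Ensembl genes whose symbols begin with Kdm, Kmt, Setd, Hdac or Kat and a subtype, or with Suv39h, Ehmt or Ezh, and pseudogene names ending in -ps (5 genes) were left out. This rule found 64 of the 53700 Ensembl genes in the expression table, which has 60193 features in all. All samples came from female ICR mice aged 42 to 45 weeks that had been primed with pregnant mare's serum gonadotropin (PMSG). For the IVM group, cumulus cells were stripped from germinal vesicle oocytes, which were then cultured in M16 medium for 12 h. For the IVO group, ovulated oocytes were taken from the oviduct 14 h after an injection of human chorionic gonadotropin (hCG), and their cumulus cells were dispersed with hyaluronidase. Each group had 3 samples, and each sample was a pool of 20 oocytes from 3 mice. The groups therefore differ in the hCG injection, the presence of cumulus cells, the medium and the hours of maturation, and these cannot be told apart.

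Histone methylation is written by SET-domain methyltransferases and removed by the flavin-dependent LSD demethylases and the JmjC demethylases, whose names start with Kdm. Histone acetylation is written by lysine acetyltransferases of the GNAT and MYST families and removed by histone deacetylases. In the growing oocyte these enzymes shape the chromatin that is passed to the embryo. When transcription stops in the fully grown oocyte, their mRNAs remain as part of the maternal store, which is translated, adenylated or degraded during maturation without new synthesis. A deacetylation of histones at meiotic resumption is a well-known event of normal maturation.

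The values are FPKM, the fragments on a gene scaled to transcript length and to library size, so that levels can be set side by side between genes. The inferred depth ranged from 16400000 to 19600000 fragments for IVM and from 17800000 to 18250000 for IVO samples, with mean fragment lengths of 218 to 220 bases and 252 to 272 bases. Summed over all features, the FPKM came to 1826738 to 2111776 (IVM) and 1560813 to 1643682 (IVO). The 12 oocyte markers summed to 17920 to 20280 FPKM (IVM) and 16150 to 19040 FPKM (IVO). Oosp1 alone gave 10146 to 14047 FPKM (IVM) and 11971 to 15158 FPKM (IVO), so the sum mostly follows this gene. The mean was higher in IVM oocytes, with no overlap, for Zp2 (14.1 times), Zp3 (9.61), Zp1 (5.72), Nlrp5 (3.92), Padi6 (2.63), Bmp15 (2.00) and Mos (1.89). The groups overlapped for Oosp1, Gdf9, Ooep, Npm2 and Zar1. The 16 cumulus and granulosa markers summed to 31.4 to 62.0 FPKM (IVM) and 35.2 to 57.8 FPKM (IVO), with 13 of the 16 under 1 FPKM in all samples, Amh and Nr5a1 among them at 0. The other 3 were Cyp19a1 (16.3 to 23.1 FPKM), Fshr (6.14 to 16.3 FPKM) and Amhr2 (3.14 to 27.9 FPKM), and the groups overlapped for each. The cumulus expansion genes Ptx3, Has2 and Tnfaip6 were at 0 to 0.14 FPKM in IVM and 0.07 to 0.49 FPKM in IVO samples. The groups overlapped for none of these. Ptgs2, of the same kind, was at 0.04 to 0.19 FPKM in IVM and 0.16 to 0.50 FPKM in IVO samples, which overlapped. The part of cumulus RNA in the results was not tested. The 4 oviduct epithelium markers summed to 2.93 to 3.16 FPKM (IVM) and 3.26 to 5.66 FPKM (IVO), and the 4 blood markers to at most 0.21 FPKM (IVM) and 3.65 FPKM (IVO). In bulk samples such as these pools, fewer cells of a type and less RNA per cell cannot be told apart.

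The log2FC is the difference of the mean log2(FPKM + 1), IVO minus IVM, and this scale makes changes of low-FPKM genes look smaller. It was tested by limma over the 18818 features with a mean of at least 1 FPKM over the 6 samples, and a gene was called at a Benjamini-Hochberg adjusted p-value under 0.05 and an absolute log2FC of at least 1. Of the 64 members, 47 passed this filter. Among them, 4 were called lower in IVO oocytes (8.51%), against 17.9% of all tested features. The 4 were the acetyltransferase genes Kat6b and Kat8 and the demethylase genes Kdm4c and Kdm2b. By limma, 0 members were called higher in IVO oocytes, against 0.606% of all features, while at an unadjusted p-value under 0.05, 10 members were lower and 3 higher (21.3% and 6.38%, against 31.4% and 5.56% of all features). With the adjusted p-value as the only criterion, 7 members, the 4 included, were lower (14.9%) against 21.5% of all features, and 2 were higher (4.26%) against 1.87%. The 3 IVO values all lay below the 3 IVM values in 10 members (21.3%) against 32.6% of all features, and all above in 5 members (10.6%) against 9.62%. The median log2FC was -0.10 over the tested members and -0.30 over all tested features, which include assembled loci outside Ensembl. Over the 13154 tested Ensembl genes it was -0.18, with 15% called lower, and over the 10344 protein-coding genes it was -0.16. The medians depend on the scaling. With median-ratio scaling those of members and all features were 0.14 and -0.04, and with quantile normalization they were 0.42 and 0.17. The split of calls moved with it, from 4 lower and 0 higher to 1 lower and 2 higher with median-ratio scaling, 1 lower and 3 higher with quantile normalization, and 1 lower and 2 higher with the FPKM of Ensembl genes scaled to the same sum. All features moved in the same way, from 17.9% lower and 0.606% higher to 11.3% and 2.06%, 8.39% and 5.82%, and 12.7% and 1.44% under these 3 scalings. Values with median-ratio scaling are given beside the main ones where they change a call.

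**Figure D1:**
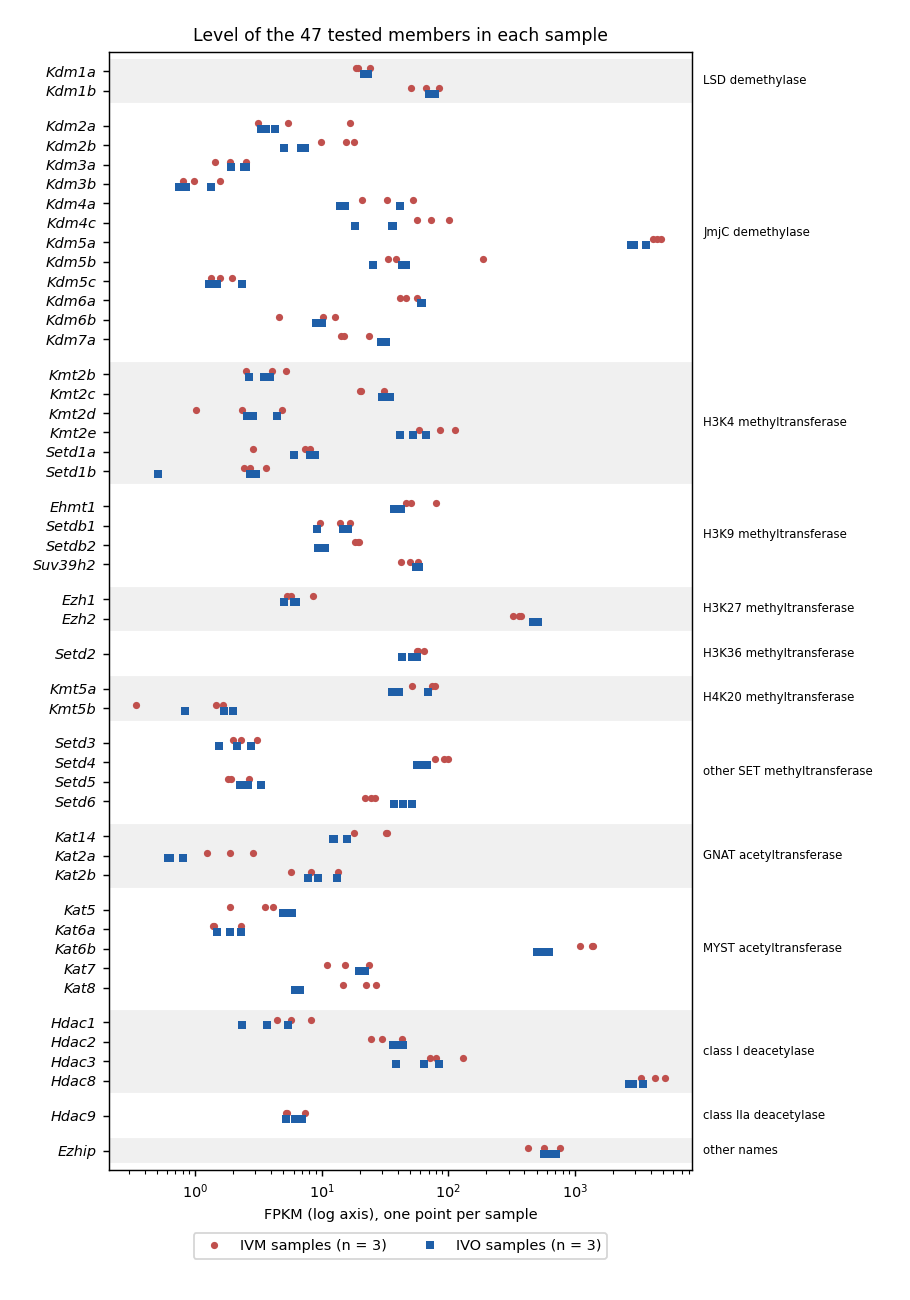
FPKM of the 47 tested members in each of the 6 samples (x axis, log scale), grouped by enzyme class, with circles for the 3 IVM and squares for the 3 IVO samples. Kdm5a and Hdac8 stand above every other member in all samples, and the IVO squares of Kat6b, Kat8, Kdm4c and Kdm2b lie left of their IVM circles.

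Most of the mRNA of this family came from a few genes. Kdm5a, a demethylase of trimethylated H3K4, Hdac8, a class I deacetylase known for its action on cohesin, and Kat6b, a MYST acetyltransferase of H3K23, together held 78.7% to 85.6% of the members' summed FPKM in IVM samples and 75.1% to 78.5% in IVO samples. Kdm5a ranked 55 and Hdac8 ranked 60 among all Ensembl genes by mean FPKM, and Kat6b ranked 291. Without these 3 genes the members summed to 1909 to 2320 FPKM (IVM) and 1977 to 2120 FPKM (IVO), and these ranges overlap.

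A sequence element read from the transcript ends is shown before the values, because maternal mRNAs in maturing oocytes are handled through their 3' ends. The cytoplasmic polyadenylation element is a short U-rich sequence bound by the protein CPEB, which promotes the lengthening of the poly(A) tail during maturation, and cDNA made by priming on poly(A) tails can depend on tail length as well as on the amount of an mRNA. The letters TTTTAT or TTTTAAT were searched on the transcript strand in the last 100 bases of the canonical transcript of each gene (GENCODE vM39, GRCm39). They were found in 14 of the 47 tested members (29.8%) and in 1934 of the 10344 tested protein-coding genes (18.7%). Of the 4 members called lower, 1 held them (Kat6b), against 13 of the 43 members not called (30.2%). Over all protein-coding genes, the letters were in 12.4% of genes called lower, 19.7% of genes not called and 23.1% of genes called higher in IVO oocytes. The median log2FC was -0.02 over protein-coding genes with the letters and -0.20 over those without, and -0.05 over members with them and -0.13 over members without. A few members are printed to show the element beside genes that were lower in IVO oocytes or overlapped between the groups, 5' to 3' with the element in capitals.
Kat6b, chr14:21722437-21722466, + strand: atttataatggaTTTTAATgcttttccatg
Kat14, chr2:144251316-144251345, + strand: ggatttttactcTTTTAATtattatattga
Kdm1b, chr13:47241267-47241296, + strand: ctaacagtgtgaTTTTATtcactctattca
Ezhip, chrX:5993273-5993302, - strand: taataaagtaagTTTTATtttaaaaattta
As given below, Kat6b and Kat14 had lower levels in IVO oocytes, and the groups overlapped for Kdm1b and Ezhip. A match is a description of letters and not a tested site, and the part of tail length in any difference was not tested.

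The largest log2FC among the 47 tested members was that of the acetyltransferase gene Kat8. All 8 acetyltransferases were tested, 2 were called lower by limma (25%, against 17.9% of all features), 3 were lower with no fold limit (37.5% against 21.5%) and 0 were called higher. At an unadjusted p-value under 0.05, 4 were lower and 0 higher (50% lower, against 31.4% of all features). Over the 8, the log2FC had a median of -0.35 (-0.16 with median-ratio scaling). Kat6b (ENSMUSG00000021767, GRCm39 chr14:21531502-21722546, + strand) gave 1363, 1392 and 1101 FPKM in the IVM samples and 552, 499 and 630 FPKM in the IVO samples. Every IVM value was above every IVO value. Its mean was 2.29 times higher in IVM oocytes, with a log2FC of -1.20 (SE 0.17, limma adjusted p = 0.0041). The difference was -0.87 with median-ratio scaling (adjusted p = 0.0244), which is past the adjusted p-value and within the fold limit. It was called after leaving out any 1 of the 6 samples.

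Kat8, also known as Mof, is the main acetyltransferase of H4K16 and the catalytic subunit of the MSL and NSL complexes. Kat8 (ENSMUSG00000030801, GRCm39 chr7:127511661-127525009, + strand) gave 26.96, 14.9 and 22.3 FPKM in IVM samples and 6.17, 6.71 and 6.71 FPKM in IVO samples. The groups did not overlap, and the IVO values lay close together. Its mean was 3.28 times higher in IVM oocytes, with a log2FC of -1.53 (SE 0.25, limma adjusted p = 0.0068), and -1.24 with median-ratio scaling (adjusted p = 0.0179). Kat8 was called lower in all 17 alternatives run, the 3 other scalings and the 6 fits without 1 sample included. An estimated 147 to 601 fragments per sample stood behind these values.

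Kat14, an acetyltransferase of the ATAC complex, gave 32.6, 18.0 and 32.5 FPKM in IVM and 15.8, 12.5 and 12.3 FPKM in IVO samples. The groups did not overlap, and the log2FC of -0.94 (SE 0.28, limma adjusted p = 0.0473) stayed within the fold limit. It was -0.64 with median-ratio scaling (adjusted p = 0.114), and the adjusted p-value was 0.0669 with the replicate block. Its exons share 1015 bases with Pet117 on the same strand, which is listed at 0 FPKM, so the division of reads between the pair is uncertain. Kat14 was past the adjusted p-value only without IVM replicate 2 (0.0201) when 1 sample was left out, and the other 5 fits gave 0.0752 to 0.141. Kat2a (Gcn5), an acetyltransferase of SAGA and ATAC, gave 1.90, 1.24 and 2.88 FPKM in IVM and 0.80, 0.64 and 0.61 FPKM in IVO samples. Its groups did not overlap either, with a log2FC of -0.80 (limma adjusted p = 0.0871), and its mean in IVO oocytes was under 1 FPKM. The closely related Kat2b was at 9.17 ± 3.95 FPKM (SD, n = 3) in IVM and 10.1 ± 2.77 FPKM in IVO samples.

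The other MYST genes did not share the lower values of Kat6b and Kat8. Kat5 (Tip60), the acetyltransferase of the NuA4 complex, gave 3.57, 1.88 and 4.14 FPKM in IVM and 4.94, 5.37 and 5.79 FPKM in IVO samples. All IVO values were above the IVM values, with a log2FC of 0.64 (95% interval -0.001 to 1.28, limma adjusted p = 0.136) that did not pass the test. With median-ratio scaling its log2FC was 0.90 (adjusted p = 0.0497). Kat7, which acetylates H3K14 at replication origins and promoters, had a log2FC of 0.36 (95% interval -0.30 to 1.03). Kat6a, the closest relative of Kat6b, was at 1.70 ± 0.51 FPKM (SD, n = 3) in IVM and 1.89 ± 0.41 FPKM in IVO samples.

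The demethylases were the next group with calls. Of 18 members 14 were tested, 2 were called lower (14.3%, against 17.9% of all features), and with no fold limit 3 were lower and 1 was higher (21.4% and 7.14%, against 21.5% and 1.87%). Their median log2FC was -0.03 (0.15 with median-ratio scaling). Kdm4c (ENSMUSG00000028397, GRCm39 chr4:74160734-74324757, + strand), which removes di- and trimethylation from H3K9 and H3K36, gave 57.0, 101 and 73.0 FPKM in IVM and 18.5, 36.5 and 35.7 FPKM in IVO samples. Every IVO value lay below every IVM value. The mean was 2.55 times higher in IVM oocytes, with a log2FC of -1.34 (SE 0.33, limma adjusted p = 0.0268) and -1.03 with median-ratio scaling (adjusted p = 0.0814). The call was lost without IVM replicate 2 (adjusted p = 0.086), without IVM replicate 3 (0.0767) or without IVO replicate 1 (0.0583).

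Kdm2b (ENSMUSG00000029475, GRCm39 chr5:123008720-123127886, - strand) is the demethylase of H3K36 that brings a variant PRC1 complex to CpG islands. It gave 18.1, 9.94 and 15.5 FPKM in IVM and 6.86, 7.40 and 5.09 FPKM in IVO samples. The groups did not overlap, with a log2FC of -1.03 (SE 0.27, limma adjusted p = 0.0336) that lay just past the fold limit and was -0.74 with median-ratio scaling (adjusted p = 0.0802). Leaving out IVM replicate 1, IVM replicate 3 or any 1 of the 3 IVO samples ended the call, with adjusted p-values of 0.0658 to 0.111, and it remained without IVM replicate 2 (0.0269). Its exons overlap 643 bases of Rnf34 (59.4 FPKM) on the other strand, and the counting was not stated to use strand.

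Kdm5a was the most abundant member, with 4484, 4834 and 4136 FPKM in IVM and 2909, 2764 and 3676 FPKM in IVO samples. All IVM values were above all IVO values, with a log2FC of -0.53 (SE 0.15, limma adjusted p = 0.0432) that was within the fold limit. With median-ratio scaling the difference was -0.21 (adjusted p = 0.425). Kdm5a made up 89.9% to 93.8% of the summed FPKM of the demethylases in each sample. Kdm5b, its relative and also a demethylase of H3K4, gave 33.2, 189 and 38.9 FPKM in IVM and 46.6, 25.6 and 42.9 FPKM in IVO samples. IVM replicate 2 stood apart, and the log2FC of -0.74 had a wide 95% interval of -2.25 to 0.76. The same sample was high for Kdm2a, with 3.17, 16.6 and 5.38 FPKM in IVM and 3.35 to 4.29 FPKM in IVO samples.

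Kdm7a, which removes mono- and dimethylation from H3K9 and H3K27, was 1 of 2 members that were higher in IVO oocytes by the adjusted p-value alone, and both are named after their values were seen. It gave 15.1, 14.3 and 23.5 FPKM in IVM and 32.3, 29.2 and 31.2 FPKM in IVO samples. Its log2FC was 0.81 (SE 0.23, limma adjusted p = 0.0447), and it passed the fold limit with median-ratio scaling (1.12, adjusted p = 0.0176). With each sample's trend with transcript length removed, the log2FC was 0.62 (adjusted p = 0.0712). Kdm6a (Utx), the X-linked demethylase of H3K27, gave 46.5, 41.2 and 56.2 FPKM in IVM and 61.8, 62.4 and 61.2 FPKM in IVO samples. The IVO values were all above the IVM values, with a log2FC of 0.37 (95% interval -0.07 to 0.80, limma adjusted p = 0.195), and 0.69 with median-ratio scaling (adjusted p = 0.0358). Its relative Kdm6b was at 9.25 ± 4.22 FPKM (SD, n = 3) in IVM and 9.44 ± 0.55 FPKM in IVO samples. In the fits without 1 sample, Kdm5a was past the adjusted p-value only without IVO replicate 3 (0.0317, and 0.0695 to 0.15 in the other 5 fits). Kdm7a was past it only without IVM replicate 3 (0.0201, and 0.102 to 0.123 in the other 5 fits).

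For the LSD demethylases no difference was past the replicate error. Kdm1b (Lsd2), which clears H3K4 methylation from imprinted genes in growing oocytes, gave 66.5, 50.7 and 84.9 FPKM in IVM and 79.0, 70.6 and 78.9 FPKM in IVO samples. Its log2FC was 0.20 with a 95% interval of -0.32 to 0.73, and its exons overlap 1451 bases of Dek (237 FPKM) on the other strand. Kdm1a (Lsd1) had a log2FC of 0.12 with a 95% interval of -0.32 to 0.57. For Kdm4a, which removes H3K9 and H3K36 trimethylation and is needed maternally for early development, the values of 21.0, 53.0 and 32.6 FPKM in IVM and 41.3, 14.1 and 15.3 FPKM in IVO samples overlapped, and its interval of -1.78 to 0.49 was wide.

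**Figure D2:**
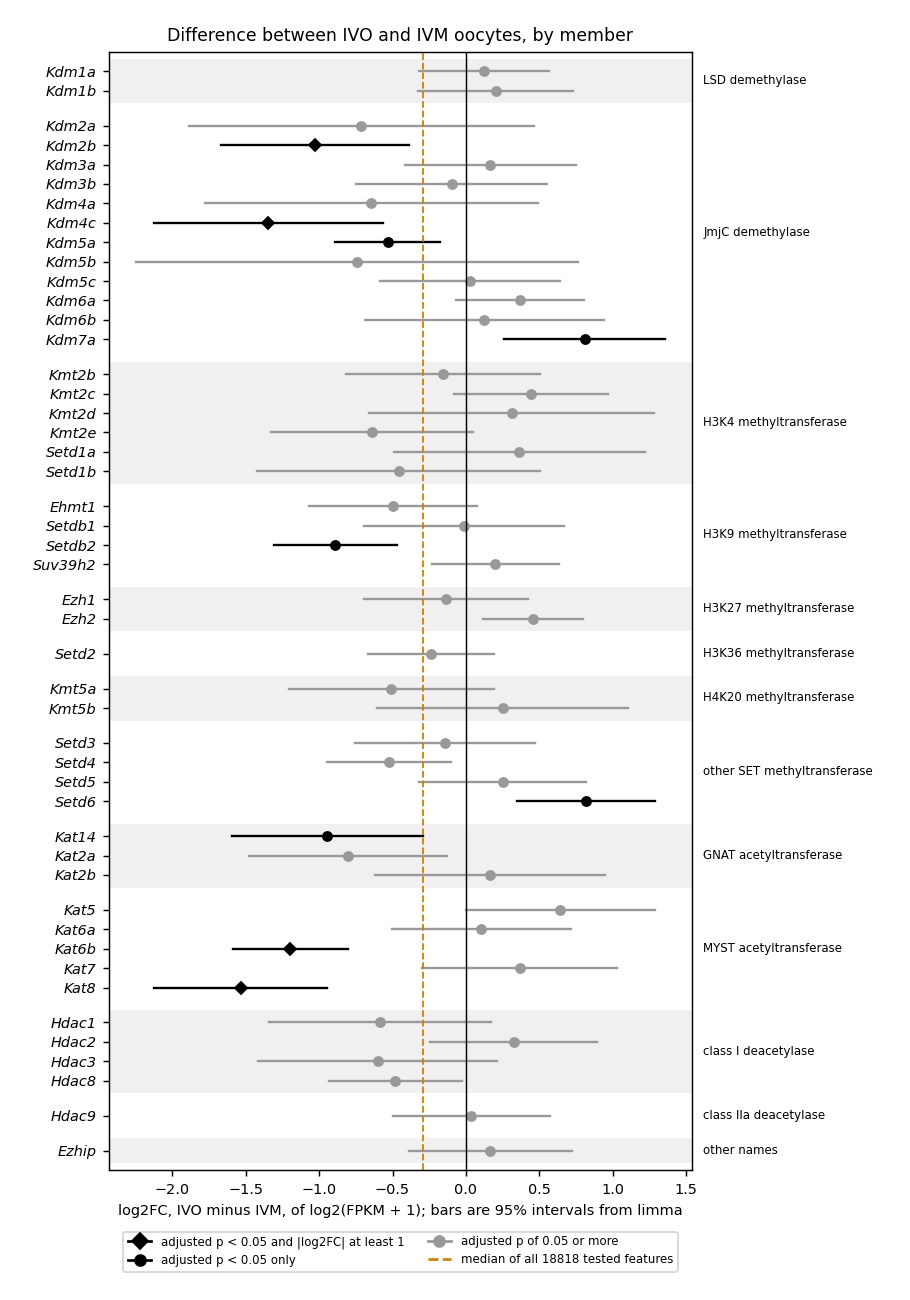
log2FC of log2(FPKM + 1), IVO minus IVM (x axis), with 95% intervals from limma for the 47 tested members, grouped by enzyme class. Black diamonds are the 4 members past the adjusted p-value and the fold limit, black circles the 5 past the adjusted p-value alone, grey circles the rest, and the dashed line is the median of -0.30 over all 18818 tested features.

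The methyltransferases held no call by limma. Of 24 members 19 were tested. With no fold limit 1 was lower and 1 higher (5.26% each, against 21.5% and 1.87% of all features). At an unadjusted p-value under 0.05, 2 were lower and 2 higher (10.5% each, against 31.4% and 5.56% of all features). Over the 19, the log2FC had a median of -0.13 (0.14 with median-ratio scaling). Setdb2, an H3K9 methyltransferase with a methyl-CpG-binding domain, gave 18.4, 19.6 and 19.6 FPKM in IVM and 9.83, 10.6 and 9.31 FPKM in IVO samples. The samples of each group lay close together and did not overlap. Its mean was 1.94 times higher in IVM oocytes, with a log2FC of -0.89 (SE 0.18, limma adjusted p = 0.0131), and -0.59 with median-ratio scaling (adjusted p = 0.0533). The adjusted p-value stayed under 0.05 without any 1 of the 6 samples (0.0329 to 0.0473). Setdb1, the H3K9 methyltransferase that silences endogenous retroviruses in oocytes, showed no such difference, with 13.5 ± 3.52 FPKM (SD, n = 3) in IVM, 13.4 ± 3.61 FPKM in IVO samples and a log2FC of -0.01 (95% interval -0.70 to 0.67). On the other strand, exons of Setdb2 overlap 436 bases of Cab39l (13.8 FPKM) and those of Setdb1 overlap 1309 bases of Cers2 (18.2 FPKM).

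Of the other H3K9 methyltransferases, Suv39h2 had the highest mean over the 6 samples, though Ehmt1 was higher in IVM oocytes (59.2 against 49.9 FPKM). Suv39h2 gave 49.5, 42.6 and 57.6 FPKM in IVM and 58.9, 56.1 and 56.3 FPKM in IVO samples. These values overlapped, with a log2FC of 0.20 (95% interval -0.23 to 0.63). Its exons overlap 5074 bases of Dclre1c (2.01 FPKM) on the other strand. Suv39h1 was at 0 to 0.33 FPKM in all samples. Ehmt1 (GLP) gave 80.1, 46.4 and 51.1 FPKM in IVM and 42.2, 41.9 and 37.4 FPKM in IVO samples, all lower in IVO, with a log2FC of -0.50 (95% interval -1.07 to 0.07, limma adjusted p = 0.185). Its partner Ehmt2 (G9a) gave 1.08, 0.20 and 0.93 FPKM in IVM and 0.15 to 0.16 FPKM in IVO samples, and was under the limit for testing.

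The H3K4 methyltransferases were low to moderate and none of the 6 tested passed an unadjusted p-value of 0.05. Kmt2c (Mll3), an H3K4 monomethyltransferase of enhancers, gave 20.3, 20.6 and 30.9 FPKM in IVM and 34.9, 32.0 and 30.2 FPKM in IVO samples, with a log2FC of 0.44 (limma adjusted p = 0.196) and 0.75 with median-ratio scaling (adjusted p = 0.0426). Kmt2e, a family member without firmly established catalytic activity, was the most abundant, at 85.9 ± 27.4 FPKM (SD, n = 3) in IVM and 53.8 ± 12.3 FPKM in IVO samples (log2FC -0.64, 95% interval -1.33 to 0.05), and shares 1035 exon bases with Srpk2 (275 FPKM) on the other strand. Kmt2b (Mll2), the main H3K4 methyltransferase of growing mouse oocytes, was at 3.95 ± 1.38 FPKM (SD, n = 3) in IVM and 3.35 ± 0.61 FPKM in IVO samples, with a 95% interval of the log2FC of -0.81 to 0.51. Kmt2d gave 4.89, 1.01 and 2.33 FPKM in IVM and 2.87, 4.42 and 2.59 FPKM in IVO samples. Setd1b, needed in the oocyte for its maternal gene programme, gave 2.71, 2.44 and 3.63 FPKM in IVM and 2.73, 3.04 and 0.51 FPKM in IVO samples, with IVO replicate 3 lowest. Setd1a shares 3523 exon bases on the same strand with Gm49388, so its level of 6.13 ± 2.86 FPKM (SD, n = 3) in IVM and 7.65 ± 1.44 FPKM in IVO samples is uncertain.

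Setd2, the enzyme of H3K36 trimethylation that guides DNA methylation in the oocyte, gave 58.2, 56.2 and 63.9 FPKM in IVM and 51.7, 43.5 and 56.4 FPKM in IVO samples. The groups overlapped at a single pair of values, and the log2FC of -0.24 had a 95% interval of -0.66 to 0.19. Kmt5a (Set8), the enzyme of H4K20 monomethylation, was at 68.0 ± 14.2 FPKM (SD, n = 3) in IVM and 48.8 ± 18.0 FPKM in IVO samples (95% interval of the log2FC -1.21 to 0.19).

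Setd6 was the other member that was higher in IVO oocytes by the adjusted p-value alone. It is a lysine methyltransferase known for methylating the RelA subunit of NF-kB. It gave 24.6, 26.6 and 22.1 FPKM in IVM and 44.0, 51.4 and 37.0 FPKM in IVO samples, with no overlap. The mean was 1.81 times higher in IVO oocytes, with a log2FC of 0.82 (SE 0.20, limma adjusted p = 0.0258), and it passed the fold limit with median-ratio scaling (1.13, adjusted p = 0.0145). With each sample's trend with transcript length removed, Setd6 had a log2FC of 0.62 (adjusted p = 0.0586). It kept an adjusted p-value under 0.05 without IVM replicate 2 (0.0463) or IVO replicate 3 (0.0319), and had 0.0613 to 0.0946 without any other sample. Its exons overlap 351 bases of Cnot1 (50.9 FPKM) on the other strand. Setd4 was the most abundant of the SET genes without an assigned main mark, with 99.3, 91.9 and 78.9 FPKM in IVM and 68.2, 61.4 and 56.7 FPKM in IVO samples. All IVO values were lower, and the log2FC of -0.53 (SE 0.18) missed the adjusted p-value (limma, 0.0749).

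The Polycomb repressive complex PRC2 writes H3K27 methylation through Ezh2 or Ezh1 and needs Eed and Suz12 for activity, and Ezhip is its inhibitor in germ cells. Ezh2 gave 324, 360 and 378 FPKM in IVM and 512, 470 and 473 FPKM in IVO samples. Every IVO value was above every IVM value. The mean was 1.37 times higher in IVO oocytes. The log2FC of 0.46 (SE 0.15, 95% interval 0.11 to 0.80) missed the adjusted p-value (limma, 0.0615). It was 0.78 with median-ratio scaling (adjusted p = 0.0173) and 0.26 with each sample's trend with transcript length removed (adjusted p = 0.229). Ezh2 made up 36.9% to 44.5% of the summed FPKM of the methyltransferases in IVM and 51.2% to 53.2% in IVO samples. Ezh1 was low, at 6.55 ± 1.74 FPKM (SD, n = 3) in IVM and 5.79 ± 0.68 FPKM in IVO samples. Ezhip was above Ezh2 in mean level, with 572, 424 and 770 FPKM in IVM and 569, 650 and 713 FPKM in IVO samples. These values overlapped, with a log2FC of 0.17 (95% interval -0.39 to 0.72).

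Eed and Suz12, which like Rbbp7, Mtf2 and Jarid2 are named after their values were seen, were higher in IVO oocytes by the adjusted p-value alone. Eed, the reader of trimethylated H3K27, gave 261, 277 and 231 FPKM in IVM and 366, 399 and 399 FPKM in IVO samples (log2FC 0.60, SE 0.15, limma adjusted p = 0.030). Suz12, the scaffold subunit, gave 35.2, 35.6 and 57.4 FPKM in IVM and 89.1, 85.1 and 63.4 FPKM in IVO samples (log2FC 0.90, SE 0.26, limma adjusted p = 0.0438). The groups overlapped for neither gene. With median-ratio scaling the log2FC was 0.92 for Eed (adjusted p = 0.0167) and 1.21 for Suz12 (adjusted p = 0.0181), which was then called higher. With each sample's trend with transcript length removed, it was 0.41 for Eed (adjusted p = 0.105) and 0.69 for Suz12 (adjusted p = 0.0677). With the replicate number as a block, the adjusted p-values were 0.096 for Eed and 0.105 for Suz12. Neither gene passed in these last fits. Without 1 sample, Eed stayed past the adjusted p-value in 1 of 6 fits (without IVM replicate 2, 0.0399, otherwise 0.0531 to 0.103) and Suz12 in 2 of 6 (without IVM replicate 3, 0.0255, or IVO replicate 3, 0.0468, otherwise 0.12 to 0.127). Rbbp4, a histone-binding subunit that PRC2 shares with deacetylase complexes, was called lower, with 149, 147 and 155 FPKM in IVM and 51.5, 59.9 and 62.1 FPKM in IVO samples (log2FC -1.37, SE 0.16, limma adjusted p = 0.0025). The polycomb-like subunit Mtf2 was at 91.5 to 131 FPKM in IVM and 147 to 148 FPKM in IVO samples, with no overlap (log2FC 0.49, limma adjusted p = 0.108, and 0.0258 with median-ratio scaling). Its log2FC was 0.28 with the length trend removed (adjusted p = 0.26). Jarid2, which helps recruit PRC2, gave 470, 811 and 578 FPKM in IVM and 561, 77.5 and 203 FPKM in IVO samples, which overlapped (log2FC -1.54, 95% interval -3.06 to -0.01, limma adjusted p = 0.132). Rbbp7, the close relative of Rbbp4, was at 1004 ± 142 FPKM (SD, n = 3) in IVM and 1181 ± 324 FPKM in IVO samples.

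**Figure D3:**
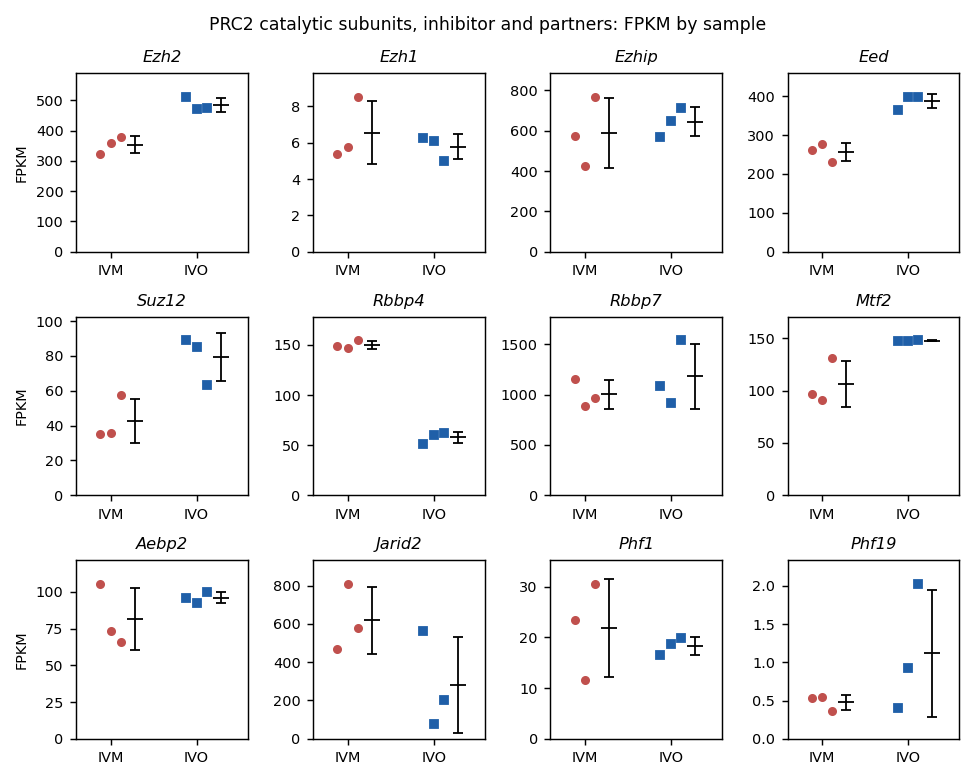
FPKM by sample of the PRC2 catalytic genes Ezh2 and Ezh1, the inhibitor gene Ezhip and 9 partner genes, with 1 point per sample and bars for the mean ± SD of 3 samples. The IVO samples lie above the IVM samples for Ezh2, Eed, Suz12 and Mtf2, below them for Rbbp4, and overlap them for the others.

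The deacetylases held no call by limma. Of 11 members 5 were tested, and 1 was lower and 0 were higher at an unadjusted p-value under 0.05 (20% lower, against 31.4% of all features). Over the 5, the log2FC had a median of -0.48 (-0.16 with median-ratio scaling). Hdac8 gave 4284, 5167 and 3322 FPKM in IVM and 2903, 2694 and 3452 FPKM in IVO samples. IVO replicate 3 was above IVM replicate 3, so the groups overlapped, with a log2FC of -0.48 (SE 0.19, limma adjusted p = 0.116). Hdac8 made up 95.4% to 97.8% of the summed FPKM of the deacetylases in each sample. Hdac2, which with Hdac1 deacetylates histones in the growing and maturing oocyte, gave 29.8, 24.6 and 42.9 FPKM in IVM and 43.9, 39.4 and 36.5 FPKM in IVO samples (log2FC 0.32, 95% interval -0.24 to 0.89). Hdac1 was lower in level, with 5.74, 4.48 and 8.23 FPKM in IVM and 2.34, 3.68 and 5.43 FPKM in IVO samples (log2FC -0.59, 95% interval -1.34 to 0.17). Hdac3, the catalytic subunit of nuclear receptor corepressor complexes, was at 94.0 ± 31.5 FPKM (SD, n = 3) in IVM and 62.5 ± 23.0 FPKM in IVO samples. Hdac9 was the tested class IIa gene, at 5.99 ± 1.27 FPKM (SD, n = 3) in IVM and 6.13 ± 0.88 FPKM in IVO samples.

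The 17 members that were not tested had a mean under 1 FPKM. For a transcript of 1000 bases, 3 fragments are worth 0.196 to 0.234 FPKM, a floor for counting error alone. Of the 17, 15 were under 1 FPKM in every sample. They were Kmt2a, Setd7, Suv39h1, Kmt5c, Kdm4b, Kdm4d, Kdm5d, Kdm8, Hdac5, Hdac6, Hdac7, Hdac10, Hdac11, the noncoding Kdm6bos and the pseudogene Kdm4dl, which was at 0 in all samples. Ehmt2 reached 1 FPKM in 1 IVM sample and Hdac4 in 2 IVM samples. Hdac6, the cytoplasmic tubulin deacetylase, was at 0.48 to 0.83 FPKM (IVM) and 0.29 to 0.61 FPKM (IVO). Hdac11 was at 0 to 0.10 FPKM in IVM samples and 0 to 0.02 FPKM in IVO samples.

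Closely related enzymes often differed in level by a large factor. A plain ratio of a pair within 1 sample does not move with the scaling of the library. The constant added here lets it move where a gene is near 0. The log2 ratio of the FPKM, with 0.1 added to each, was compared for 15 pairs by a two-sided exact permutation test, for which 0.1 is the smallest p-value that 3 samples a group allow. In 6 pairs the IVM and IVO samples did not overlap, each with the smallest exact p = 0.1 (0.25 adjusted over the 15 pairs), so no pair passed. The mean log2 ratio of Kat6a to Kat6b was -9.51 ± 0.57 (SD, n = 3) in IVM and -8.15 ± 0.43 in IVO samples. For Kat2a to Kat2b the order of the groups was the opposite, with -2.13 ± 0.55 (SD, n = 3) in IVM and -3.67 ± 0.52 in IVO samples. This difference of -1.55 became -0.97 with 1 added in place of 0.1. Hdac1 to Hdac2 was -2.38 ± 0.04 (SD, n = 3) in IVM and -3.43 ± 0.72 in IVO samples. The ratio of Setdb1 to Setdb2 was -0.91, -0.48 and -0.23 in IVM and 0.70, 0.47 and -0.01 in IVO samples, so Setdb2 was above Setdb1 in all 3 IVM samples and below it in 2 of the 3 IVO samples. Ezh1 to Ezh2 was -5.76 ± 0.27 (SD, n = 3) in IVM and -6.37 ± 0.15 in IVO samples. The sixth pair was Kmt5b to Kmt5c, in which Kmt5c was at 0 to 0.20 FPKM, so its ratio rests on few fragments. In the other 9 pairs the groups overlapped, and differences in mean log2 ratio ranged from -0.13 (Kmt2a to Kmt2b) to 1.20 (Setd1a to Setd1b). The count of pairs without overlap was 11 without IVM replicate 2, and leaving out a sample cannot lower this count. It was 5 with 1 added to each FPKM in place of 0.1.

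**Figure D4:**
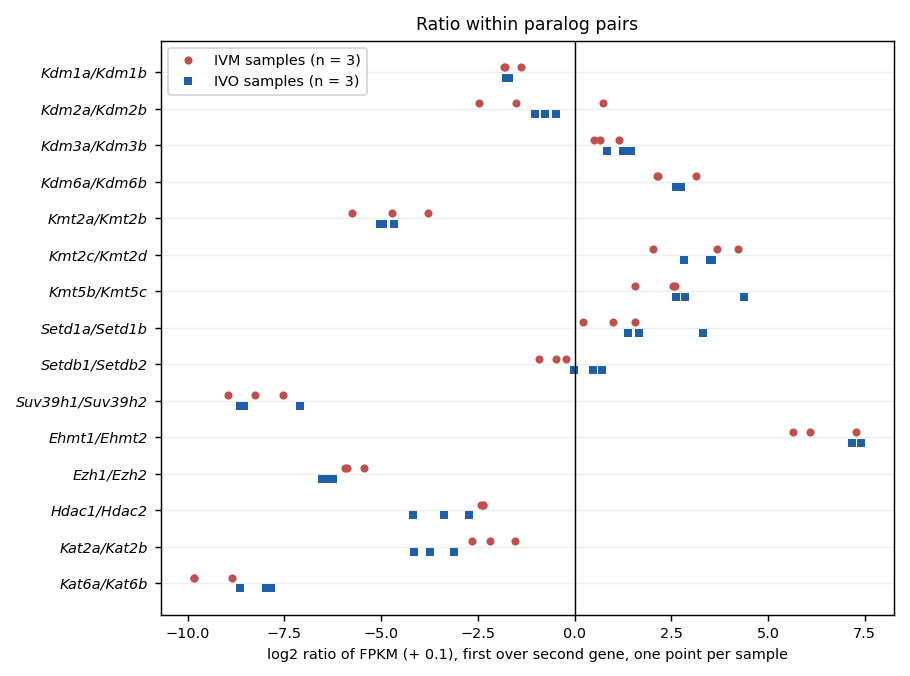
log2 ratio of FPKM (with 0.1 added) of the first to the second gene of 15 paralog pairs, with 1 point per sample, circles for the 3 IVM and squares for the 3 IVO samples. The samples of the groups do not overlap for Kat6a/Kat6b, Kat2a/Kat2b, Hdac1/Hdac2, Ezh1/Ezh2, Setdb1/Setdb2 and Kmt5b/Kmt5c.

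A list of 118 further genes holds the partners of these enzymes and histone-modifying enzymes with other names. Of these, 99 were tested, and 9 were called lower by limma (9.09%, against 17.9% of all features) and 0 higher (against 0.606%). At an unadjusted p-value under 0.05, 21 were lower and 4 higher (21.2% and 4.04%, against 31.4% and 5.56%), and their median log2FC was -0.13 (0.18 with median-ratio scaling). By list, 1 of 8 tested PRC2 partners, 2 of 12 partners of the COMPASS H3K4 methyltransferases, 0 of 8 partners in H3K9 methylation, 1 of 22 corepressor partners of the deacetylases, 3 of 26 partners of the acetyltransferases and 2 of 23 enzymes under other names were called lower. Wdr82, which ties the Setd1a and Setd1b complexes to RNA polymerase II, had the lowest adjusted p-value, with 58.5, 54.7 and 79.0 FPKM in IVM and 12.6, 15 and 15.6 FPKM in IVO samples (log2FC -2.07, SE 0.21, limma adjusted p = 0.0017). Its values in the groups were far apart, and Setd1a and Setd1b themselves overlapped between the groups. Msl2, the partner of Kat8 in the MSL complex and named after its values were seen, gave 22.5, 43.6 and 29.3 FPKM in IVM and 10.6, 12.6 and 11.8 FPKM in IVO samples (log2FC -1.33, SE 0.27, limma adjusted p = 0.0134). The other MSL subunits on the list overlapped between the groups. Their log2FC was -0.40 for Msl1 (limma adjusted p = 0.281) and 0.23 for Msl3 (adjusted p = 0.398). These genes and Kansl1, Kansl2, Kansl3 and Mcrs1 are named after their values were seen. Kansl2 of the NSL complex was at 24.8 to 32.0 FPKM in IVM and 34.5 to 42.6 FPKM in IVO samples (log2FC 0.41, limma adjusted p = 0.171, and 0.042 with median-ratio scaling). Kansl1 (log2FC 0.01) and Mcrs1 (-0.08) of the same complex overlapped between the groups. Kansl3, also of this complex, gave 0.72, 0.78 and 1.75 FPKM in IVM and 0.22, 0.30 and 0.19 FPKM in IVO samples. It was lower in IVO without overlap, and under the limit for testing.

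Transcript length moved with the group difference in this table. Over tested protein-coding genes the median log2FC was -0.50 for listed lengths under 1000 bases and -0.10 for 3000 to 5000 bases, and 30.9% and 11.6% of these genes were called lower. The median listed length was 4622 bases for the 47 tested members and 2748.5 bases for the 10344 tested protein-coding genes, and 0 tested members were under 1000 bases. After the trend of each sample with length was removed, the median over members was -0.30 and that over all features -0.35, 6 members were called lower (Kat6b, Kat8, Kdm4c, Kdm2b, Kat14 and Setdb2) and 0 higher by limma. These were 12.8% of the members, against 17% of all features called lower in that fit. With no fold limit, 9 members were lower and 0 higher, against 3923 and 312 of 18818 features. The part of fragment length in these differences was not tested.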

How the data were processed

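RNA-seq of 6 pools of MII oocytes (3 IVM, 3 IVO, grouped by sample title) was analysed. Per the study's methods, the authors prepared cDNA with a SMART-Seq v4 kit, aligned reads to GRCm39 (HISAT2 2.1.0 in the submitters' processing notes) and deposited FPKM per gene from RSEM 1.3.3. They tested counts with DESeq2 1.24.0. Counts were not used here, so limma 3.58.1 (R 4.3.3; lmFit, eBayes with trend, group alone, two-sided) was run on log2(FPKM + 1). Depth and fragment length were read from how low FPKM values of genes with 1 transcript are spaced. Between 79.9% and 82.6% of the values used came out whole within 0.15 fragments, which was too few to rebuild counts. FPKM carries each library's total, and amplified fragments are not independent molecules. Gene positions and exon overlaps came from GENCODE vM39. The group means in the table were not used. The fit was tested on simulated data. Alternatives were other pseudocounts, filters and scalings, Ensembl genes only, a fit with no trend in eBayes, a block for the replicate number, removal of the length trend by lowess (span 0.3), and leaving out each sample.

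The members, lists, pairs and tests were chosen with earlier results of these data known. Named genes were the called members, enzymes with known roles in oocytes, the most abundant member of each class, the pairs, and the 3 called partners with the lowest adjusted p-values, of which 1 is not reported here. Tables and plots used Python 3.11.15, pandas 2.3.3, numpy 2.4.6, scipy 1.17.1 and matplotlib 3.10.9.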

Additional observations from a re-analysis of the deposited data

How the results depend on the processing

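The direction of the 4 called members held in all 17 alternatives run, while 19 of the 40 named members with a fit that were not called changed sign in some alternative. Members called lower (4) were 2 with no filter on low values (3.17%, against 7.75% of all features). They were 1 each with median-ratio scaling, quantile normalization and scaling to the same sum (2.13%, against 11.3%, 8.39% and 12.7%). Members called higher (0) were 2, 3 and 2 under these 3 scalings (4.26%, 6.38% and 4.26%, against 2.06%, 5.82% and 1.44% of all features). With no fold limit, 7 members were lower and 2 higher (14.9% and 4.26%, against 21.5% and 1.87% of all features). In the partner list 2 were higher (2.02%), against 0 with the limit. Under that rule the lower count of members was 3 with no filter (against 3076 of 32852 features). It was 2 with each of the 3 scalings (against 2490, 2018 and 2873 of 18818 features, in the order above). The higher count was 1 with no filter (against 255 of 32852 features) or without the trend of eBayes (289 of 18818). It was 6 of 47 members with median-ratio scaling (against 1344 of 18818 features) and 8 of 47 with quantile normalization (2784 of 18818). It was 0 with the length trend removed, alone (against 312 of 18818 features) or with the replicate block (129 of 18818). Of the 99 tested partners, those called higher (0) were 1 with median-ratio scaling (against 2.06% of all features), 5 with quantile normalization (5.82%) and 1 with the same sum (1.44%). Partners called lower (9) were 4 with quantile normalization (against 8.39% of all features). Leaving out 1 sample gave 2 to 4 members lower (4.26% to 8.51%, against 12.1% to 16.9% of all features). It gave 0 to 1 members higher and 0 to 1 partners higher (against 0.436% to 0.691% of all features). With no fold limit, 3 to 5 members were lower and 0 to 1 higher in these fits, against 2484 to 3415 and 109 to 288 of 18818 features. The pairs without overlap were 6 to 11 when 1 sample was left out. The cause of these changes was not tested.

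Same-numbered IVM and IVO samples did not deviate together (correlations -0.06, -0.02 and -0.11), so no shared effect of the number was seen. The labels do not say whether same-numbered pools were prepared together. With the replicate number as a block, 3 members were called lower (Kat6b, Kat8 and Kdm4c) and 0 higher. These were 6.38% and 0%, against 15.4% and 0.489% of all features. With no fold limit, 3 members were lower and 0 higher, against 3027 and 118 of the 18818 features in that fit. Depth limits what can be said of the 15 members under 1 FPKM in every sample, which were not tested.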
